A study of Mus musculus with 9 samples.

Results

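A set of 10 genes of the neural crest, and of the pigment cells that arise from it, was followed through mouse glioblastoma tissue. They are Foxd3, Tfap2a, Tfap2b, Pax3, Snai2, Mitf, Dct, Pmel, Tyrp1 and Ednrb, out of 46517 genes in the count files, found by matching the files' Ensembl identifiers to mouse symbols. They were chosen for their levels in these same libraries, so their differences between models are given as a description and carry no test. The other gene lists used below were also chosen with earlier results of these data known. Their counts and p-values are a description too, and nothing is read from a share above that of all genes. The tumours came from 3 mouse models meant to represent different cells of origin, with 3 bulk RNA-seq libraries each. The models are named by their Cre recombinase line: Synapsin-cre, Nestin-creERT2 and NG2-creERTM.

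A Synapsin promoter drives expression in neurons, a Nestin promoter in neural stem and progenitor cells, and the NG2 (Cspg4) promoter in oligodendrocyte precursors and pericytes. The creERT2 and creERTM forms act only when tamoxifen or a related ligand is given, whereas the Synapsin line has no such form in its name. All groups share the label glioblastoma tumour and a mixed strain background. The tumour-driving alleles, tamoxifen schedule, age and sex are not given in the sources used here. Neither do they say whether the libraries of a model came from separate animals. A p-value here sets a difference against the spread between these libraries only, part of which may be technical.

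The neural crest is a population of cells that leaves the dorsal edge of the developing neural tube and migrates through the embryo. It gives rise to melanocytes, Schwann cells, peripheral neurons and much of the connective tissue of the face, but not to the glia of the brain. FOXD3, TFAP2, PAX3 and SNAI2 act in the formation and early fate choice of these cells. MITF then switches on the pigment programme, in which DCT, TYRP1 and tyrosinase make melanin and PMEL forms the fibrils it is laid on, while the endothelin receptor EDNRB supports migrating crest and pigment precursor cells.

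The libraries held 23557398 to 41099967 reads counted in genes, with a median of 34742585. Levels are given as CPM, read counts per 1000000 reads of the TMM-scaled library size, and 3 counts corresponded to 0.0715 to 0.133 CPM in these libraries. The glioma genes Olig2, Sox2, Pdgfra, Nes and Vim were detected in all 9 libraries. Each was lowest in Synapsin-cre replicate 1, at 39.0, 49.6, 128, 55.3 and 541 CPM in that order. Synapsin-cre replicate 1 stood apart: its summed level of 11 neuronal genes was 7836 CPM against 475 to 1902 in the other 8 libraries, and its summed level of 10 proliferation genes was 144 CPM against 1322 to 2880. Xist, the RNA of the inactive X chromosome, was at 778 to 1810 CPM in the 3 Nestin-creERT2 libraries and at 1320 CPM in NG2-creERTM replicate 2, and at 1.28 CPM or less in the other 5. Ddx3y, a gene of the Y chromosome, was at 59.2 to 66.9 CPM in Synapsin-cre and at 0.0715 CPM or less in Nestin-creERT2. It was at 5.54, 0.0523 and 71.7 CPM in NG2-creERTM replicates 1 to 3, so replicates 2 and 3 came from different animals. Sex and model therefore cannot be told apart between Synapsin-cre and Nestin-creERT2. In bulk tissue, fewer cells of a type and less RNA per cell cannot be told apart either.

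In these tumours the members did not move as 1 group. Foxd3 was at 14.4 CPM or more in every Synapsin-cre and NG2-creERTM library and close to the counting limit in every Nestin-creERT2 library. Tfap2a, at a far lower level, was also lowest in the Nestin-creERT2 libraries. Dct and Pmel were high in the NG2-creERTM libraries, and Pmel in 1 Synapsin-cre library as well. Mitf and Ednrb were present in all 9 libraries, whereas Pax3 and Tyrp1 were at or near 0 in most. The filter on low counts passed 8 of the 10, leaving out Pax3 and Tyrp1. The plot of members by library shows all of these values.

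**Figure D1:**
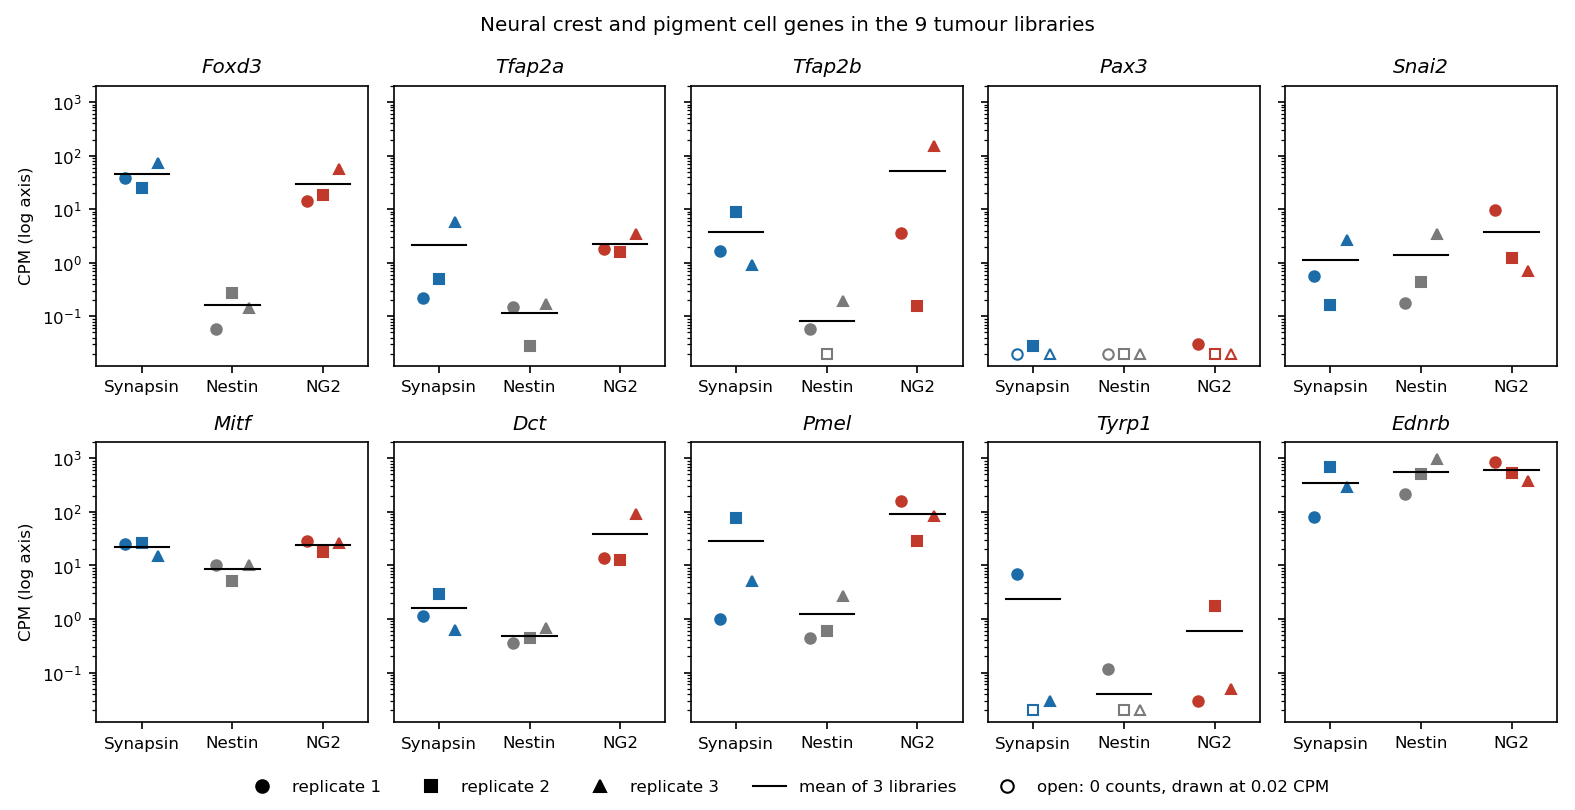
CPM on a log axis of the 10 members in each library, by model (columns of points: Synapsin-cre, Nestin-creERT2, NG2-creERTM). Symbols mark the replicate, lines the mean of 3 libraries, and open symbols 0 counts, drawn at 0.02 CPM. Foxd3 lies between 14.4 and 72.7 CPM in the Synapsin-cre and NG2-creERTM libraries and at 0.277 CPM or less in the Nestin-creERT2 libraries.

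Foxd3, a forkhead repressor that marks premigratory crest and holds back the pigment fate, is a gene of 2324 bases at chr4:99656299-99658622 on the plus strand of GRCm38, the genome release that mm10 names. It was at 38.1, 25.0 and 72.7 CPM in Synapsin-cre replicates 1 to 3, and at 14.4, 18.2 and 57.2 CPM in NG2-creERTM replicates 1 to 3. In Nestin-creERT2 it was at 0.0588, 0.277 and 0.143 CPM, which came from 2, 10 and 6 reads. The means were 45.3 ± 24.7 CPM in Synapsin-cre, 29.9 ± 23.7 in NG2-creERTM and 0.160 ± 0.110 in Nestin-creERT2 (SD, n = 3 each). All 6 libraries of the first pair of models were above all 3 of Nestin-creERT2, while Synapsin-cre and NG2-creERTM overlapped each other.

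The fitted log2 fold change of Foxd3 was 7.51 ± 0.89 (SE) for NG2-creERTM against Nestin-creERT2 and 8.11 ± 0.91 for Synapsin-cre against Nestin-creERT2. These comparisons share the Nestin-creERT2 libraries. Between NG2-creERTM and Synapsin-cre it was -0.60 ± 0.65. Foxd3 in Synapsin-cre replicate 1, the library with the neuronal signal, lay between the other replicates of its model. NG2-creERTM replicate 2, the library of that model with Xist, had the 18.2 CPM given above. The part of sex in the Foxd3 level was not tested.

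The gene next to Foxd3 had nearly the same profile. Gm12688, a long intergenic noncoding RNA on the minus strand (chr4:99653607-99654983), lies 1315 bases before the Foxd3 start. It was at 8.32, 37.5 and 31.6 CPM in Synapsin-cre, at 2.58, 19.5 and 20.4 CPM in NG2-creERTM, and at 0.147, 0.0831 and 0.0715 CPM in Nestin-creERT2. Of 15164 tested genes with a mean of at least 1 CPM, Gm12688 was the most like Foxd3 over the 9 libraries, with a root mean square difference of 1.10 in centred log2 CPM. Clca3a1 and Erbb3 came next, at 1.23 and 1.38. Foxd3's own spread on that scale was an SD of 3.54.

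Reads on the strand opposite to Foxd3 followed the same models. They numbered 5, 1107 and 802 in Synapsin-cre, 49, 327 and 432 in NG2-creERTM, and 2, 1 and 0 in Nestin-creERT2. They made up 26.2% of all reads counted over Foxd3, against 3.25 to 3.64% on the opposite strand over all genes. In Synapsin-cre replicate 1 they were nearly absent although Foxd3 itself was at 38.1 CPM. Alg6, a glycosylation enzyme and the nearest coding gene on the other side, ranged from 7.67 to 15.0 CPM in Nestin-creERT2 and from 12.6 to 39.3 CPM in the other 6 libraries, which is a much narrower span than that of Foxd3. The plot of the Foxd3 neighbourhood sets these 4 readings side by side.

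**Figure D2:**
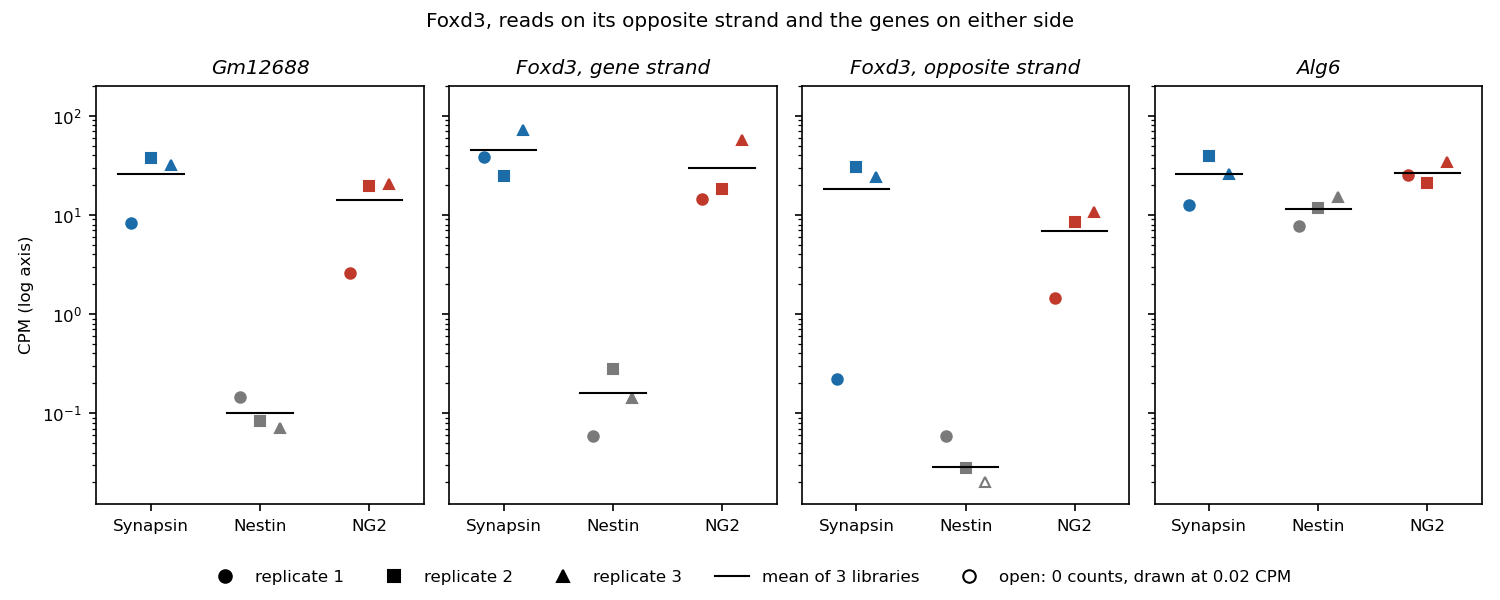
CPM on a log axis by model for Gm12688, Foxd3 on its own strand, reads opposite to Foxd3, and Alg6. Symbols mark the replicate, lines the mean of 3 libraries, and the open symbol 0 counts. Gm12688, Foxd3 and the opposite strand are all low in the 3 Nestin-creERT2 libraries, while Alg6 is at 7.67 CPM or more in every library.

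Tfap2a encodes AP-2 alpha, a factor needed for crest induction (chr13:40715302-40738376, minus strand). It was at 0.221, 0.497 and 5.86 CPM in Synapsin-cre, at 1.80, 1.57 and 3.45 CPM in NG2-creERTM, and at 0.147, 0.0277 and 0.167 CPM in Nestin-creERT2. Both other models were above Nestin-creERT2 without overlap, but the lowest Synapsin-cre library rested on 5 reads and the Nestin-creERT2 libraries on 5, 1 and 7. The log2 fold change was 4.27 ± 1.29 for NG2-creERTM against Nestin-creERT2 and 4.22 ± 1.29 for Synapsin-cre against Nestin-creERT2. Without Synapsin-cre replicate 3 the second value fell to 1.60, so that library carried most of it.

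Tfap2b encodes AP-2 beta, which acts in crest derivatives such as sympathetic neurons and in the kidney (chr1:19208914-19238576, plus strand). It was at 3.57, 0.157 and 152 CPM in NG2-creERTM, at 1.68, 8.75 and 0.902 CPM in Synapsin-cre, and at 0.0588, 0 and 0.191 CPM in Nestin-creERT2. NG2-creERTM replicate 3 alone held 90.8% of the CPM summed over the 9 libraries, and NG2-creERTM replicate 2 lay within the range of Nestin-creERT2. Without replicate 3 the log2 difference between NG2-creERTM and Synapsin-cre changed from 3.77 ± 1.91 to -1.02.

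Snai2, the repressor SLUG that lets crest cells detach, did not separate the models (chr16:14705852-14709385, plus strand). It was at 0.575, 0.166 and 2.71 CPM in Synapsin-cre, at 0.176, 0.443 and 3.50 CPM in Nestin-creERT2, and at 9.53, 1.20 and 0.695 CPM in NG2-creERTM. Each model had 1 library well above its others. Its log2 fold changes were 1.46 ± 1.41 for NG2-creERTM against Nestin-creERT2 and -0.26 ± 1.39 for Synapsin-cre against Nestin-creERT2. For NG2-creERTM against Synapsin-cre the value was 1.72 ± 1.42. Pax3, which marks dorsal neural tube and crest and is a partner of SOX10 at the Mitf gene, had 2 reads in all 9 libraries together (chr1:78101267-78197134, minus strand). At this depth it was not detectable in 7 of them.

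Mitf, the basic helix-loop-helix factor at the head of the pigment programme, is also transcribed from other promoters in macrophages and other cells (chr6:97807052-98021349, plus strand). Gene counts do not tell these transcripts apart. It was at 25.7, 26.0 and 14.8 CPM in Synapsin-cre, at 28.8, 17.6 and 26.4 CPM in NG2-creERTM, and at 10.4, 5.07 and 10.2 CPM in Nestin-creERT2. All 6 libraries of Synapsin-cre and NG2-creERTM were above Nestin-creERT2, by a log2 fold change of 1.37 ± 0.43 and 1.50 ± 0.43, and these models overlapped each other. The summed level of 12 microglia and macrophage genes was 867 to 935 CPM in Nestin-creERT2 and 638 to 779 in NG2-creERTM. It was 1239, 264 and 162 CPM in Synapsin-cre replicates 1 to 3, whose Mitf levels are given above in the same order. The part of these cells in the Mitf level was not tested.

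The genes whose profile was closest to Mitf were Rps6ka1, a kinase downstream of ERK signalling, at a root mean square difference of 0.30, Prkg1 at 0.34 and Lyn at 0.35. The pigment members lay farther off, Dct at 2.09 and Pmel at 2.54. The measure is not scaled to a gene's own spread. Mitf ranged from 5.07 to 28.8 CPM, Dct from 0.353 to 91.0 and Pmel from 0.441 to 162. These distances therefore cannot tell whether the genes rise and fall in the same libraries.

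The promoters of several pigment genes carry the M-box, an extended E-box at which MITF is known to bind. Its core TCATGTG was searched on both strands in the 250 bases before each RefSeq start (GRCm38.p6). It was found in 3.25% of 32851 promoters of that length. Of the members, 7 had an entry in the promoter table and Pax3, Snai2 and Pmel had none. Dct held the core at 2 places, 232 and 151 bases before its start, and Tyrp1 at 1 place, 47 bases before. The 3 Mitf promoters, the 2 of Tfap2a and those of Foxd3, Tfap2b and Ednrb held none. Among the other pigment cell genes, 5 of the 14 with an entry held it, including tyrosinase and Trpm1. The windows below show the match in capitals, each in the direction of the motif, for the enzymes and for Trpm1, whose level is described further on. A match describes letters only.
Dct, distal (chr14:118052461-118052489, plus strand): ctttattgggcTCATGTGtcccagccaag
Dct, proximal (chr14:118052380-118052408, minus strand): tgcacttagggTCATGTGctaacaaagag
Tyrp1 (chr4:80834155-80834183, plus strand): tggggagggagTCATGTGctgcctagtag
Tyr (chr7:87493517-87493545, minus strand): gaaaaagttagTCATGTGctttgcagaag
Trpm1 (chr7:64153682-64153710, plus strand): ccaaatcctcaTCATGTGcccaccccaaa

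The whole 250 bases before the Dct start (chr14:118052247-118052496, minus strand, from RefSeq) are shown because Dct was the pigment enzyme with the widest difference between models. Capitals mark both cores, the first of them on the opposite strand.
Dct promoter: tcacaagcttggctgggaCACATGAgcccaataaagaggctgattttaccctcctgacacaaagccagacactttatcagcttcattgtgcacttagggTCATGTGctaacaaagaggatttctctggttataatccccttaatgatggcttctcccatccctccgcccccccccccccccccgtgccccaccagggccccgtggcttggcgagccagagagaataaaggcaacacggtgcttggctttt
The same window held the SOX core ACAAAG at 2 places, a run found in 16.5% of all promoters. The AP-2 core GCCNNNGGC, found in 13.7%, was not in it.

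Dct encodes dopachrome tautomerase, an enzyme late in melanin synthesis and an early marker of melanoblasts (gene body chr14:118012790-118052244). It was at 13.7, 12.4 and 91.0 CPM in NG2-creERTM, at 1.15, 2.98 and 0.631 CPM in Synapsin-cre, and at 0.353, 0.443 and 0.667 CPM in Nestin-creERT2. Every NG2-creERTM library was above all 6 others. Synapsin-cre and Nestin-creERT2 overlapped, since Synapsin-cre replicate 3 lay below Nestin-creERT2 replicate 3. The log2 fold change was 6.31 ± 1.06 against Nestin-creERT2 and 4.61 ± 0.97 against Synapsin-cre. Without NG2-creERTM replicate 3 these became 4.73 and 3.04. Dct was the only member whose NG2-creERTM and Synapsin-cre libraries did not overlap.

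Pmel encodes the fibril protein of the melanosome (chr10:128704195-128720238, plus strand). It was at 162, 28.2 and 83.9 CPM in NG2-creERTM, at 1.02, 78.1 and 5.14 CPM in Synapsin-cre, and at 0.441, 0.610 and 2.67 CPM in Nestin-creERT2. All NG2-creERTM libraries were above Nestin-creERT2, by a log2 fold change of 6.19 ± 1.64. Synapsin-cre was split: replicate 2 lay within the NG2-creERTM range and replicate 1 within that of Nestin-creERT2. Against Nestin-creERT2 its log2 fold change was 4.49 ± 1.51, and 1.29 without replicate 2.

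Neighbours of Pmel on the minus strand overlap its ends. Cdk2 covers 837 of its bases and Dgka 105. Reads opposite to Pmel made up 8.88% of those counted over it. Cdk2 and Dgka were themselves higher in all NG2-creERTM than in all Nestin-creERT2 libraries, by log2 fold changes of 1.54 and 2.61. Their reads lie on the other strand from Pmel and were not counted with it.

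Tyrp1, the enzyme that stabilises tyrosinase and oxidises a late melanin precursor, was not part of this pattern (gene body chr4:80834123-80851719). It had 231 reads in all. Synapsin-cre replicate 1 held 157 of them, at 6.95 CPM, and NG2-creERTM replicate 2 held 66, at 1.73 CPM. The other 7 libraries had 0 to 4 reads each. The libraries highest in Tyrp1 were thus neither the highest in Dct nor in Pmel.

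The other pigment cell genes were checked as a list of 18, of which 13 passed the filter. Tyrosinase, the rate-limiting enzyme of melanin synthesis, was at 0.785 CPM or less in all libraries and at 0 reads in 6. Mlana reached at most 0.314 CPM, Gpr143 0.266 and Slc45a2 0.837. Trpm1, a melanocyte and retinal channel, was at 1.98, 1.05 and 6.63 CPM in NG2-creERTM against 0.0552 to 0.416 in the other 6 libraries. Its log2 fold change was 3.41 ± 0.87 against Nestin-creERT2 and 4.73 ± 0.95 against Synapsin-cre. The adjusted p-values from edgeR's quasi-likelihood F-test, with the Benjamini-Hochberg method over all genes tested, were 0.297 and 0.357, so neither passed the threshold of 0.05. Rab38, which carries enzymes to the melanosome, had log2 fold changes of 2.22 ± 0.77 and 3.43 ± 0.81, with adjusted p = 0.364 and 0.357 by the same edgeR fit.

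Genes of this list that are not limited to pigment cells were abundant. Gpnmb, a lysosomal glycoprotein also made by macrophages, was at 292 to 548 CPM in NG2-creERTM, at 32.0 to 149 in Nestin-creERT2 and at 46.1 to 208 in Synapsin-cre. Mreg, a melanosome transport factor, was at 8.63 to 13.9 CPM in NG2-creERTM and at 3.93 to 5.49 in the other 6 libraries. Kit, the stem cell factor receptor, was at 19.3 to 74.2 CPM throughout. Of the 13 tested, 8 had positive log2 fold changes for NG2-creERTM against Nestin-creERT2 and 9 for NG2-creERTM against Synapsin-cre, with medians of 0.43 and 1.15 against 0.02 and -0.08 over all genes tested. For Synapsin-cre against Nestin-creERT2 5 were positive and 8 negative, with a median of -0.38 against 0.13 over all genes. None passed in any of the 3 comparisons. At an unadjusted p under 0.05 there were 4 higher for NG2-creERTM against Nestin-creERT2, beside 5.53% of all genes, and 5 higher for NG2-creERTM against Synapsin-cre, beside 4.0%. For Synapsin-cre against Nestin-creERT2 there were 0 higher, beside 6.74%, and 1 lower, beside 4.05%. The heat map of pigment genes shows Dct and Trpm1 higher in NG2-creERTM than in the other models, and Pmel higher there than in Nestin-creERT2. It also shows dark rows for Tyr, Mlana and Gpr143.

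**Figure D3:**
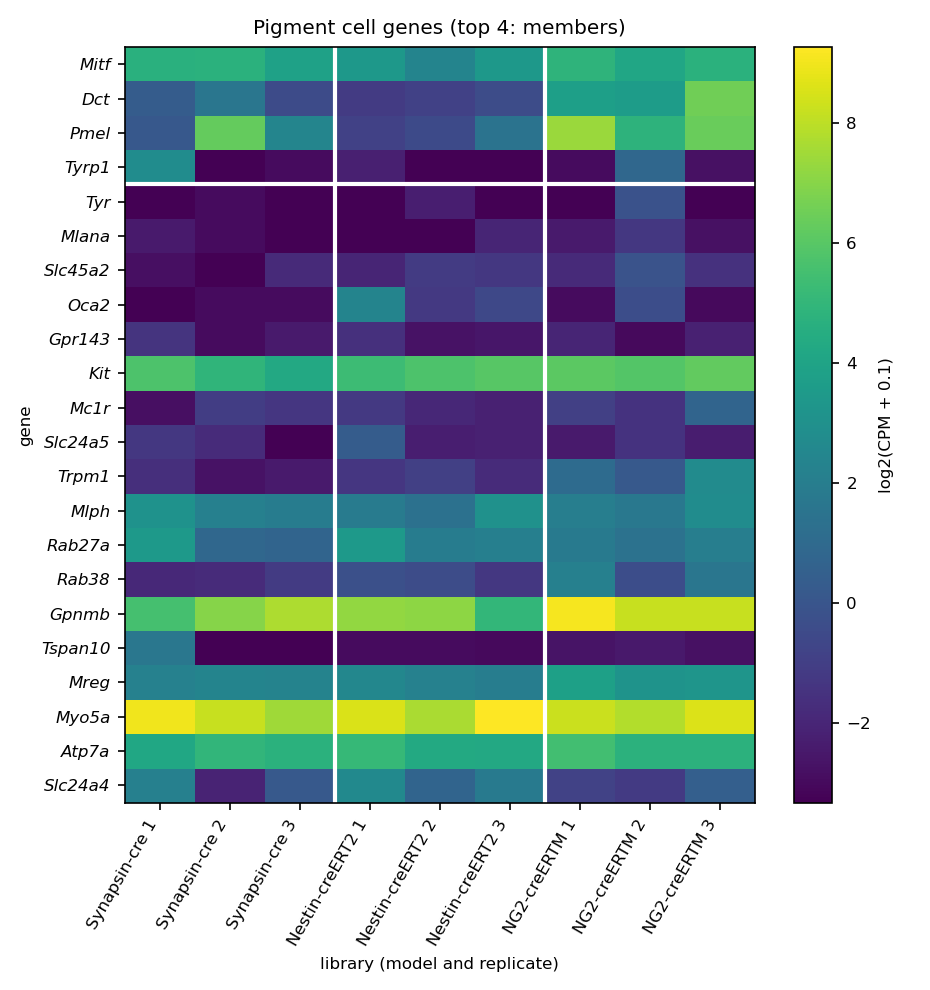
Heat map of log2(CPM + 0.1) for 4 pigment members (top) and 18 other pigment cell genes (below the white line) in the 9 libraries, ordered by model and replicate. Dct is at 12.4 CPM or more in the 3 NG2-creERTM libraries, while Tyr stays at or below 0.785 CPM in all 9.

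Markers of the retinal pigment epithelium, the other pigment-forming tissue, summed to 198 to 535 CPM in NG2-creERTM, 331 to 5922 in Nestin-creERT2 and 56.6 to 354 in Synapsin-cre. Rlbp1, which brain glia also express, was its largest term in 8 libraries, and Ttr, a gene of the choroid plexus as well, in Nestin-creERT2 replicate 1 with 5695 CPM. In NG2-creERTM the visual cycle genes Rpe65 and Rgr were at 0.149 and 0.0785 CPM or less. Of the others there, Rdh5 was at 3.18 to 9.31 CPM, Stra6 at 0.360 to 8.26, Lrat at 0.360 to 2.54 and Best1 at 0.210 to 0.695.

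Ednrb, the endothelin B receptor, was the most abundant member per length in all 9 libraries, at 18.9 to 229 CPM per kilobase of exon (chr14:103814625-103844402, minus strand). In the adult brain astrocytes and glial precursors also make it. Its level was 80.6, 680 and 290 CPM in Synapsin-cre, 216, 511 and 978 CPM in Nestin-creERT2, and 872, 545 and 374 CPM in NG2-creERTM. The 3 ranges overlapped, and the lowest value belonged to Synapsin-cre replicate 1. The log2 fold changes were 0.07 ± 0.76 for NG2-creERTM against Nestin-creERT2, -0.70 ± 0.76 for Synapsin-cre against Nestin-creERT2 and 0.77 ± 0.76 for NG2-creERTM against Synapsin-cre. The genes most like it were the glial precursor genes Pdgfra and Vcan, at root mean square differences of 0.37 and 0.38.

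The rest of the endothelin pathway held 7 genes, of which 6 passed the filter and none was called in any comparison. None reached an unadjusted p under 0.05 either. Edn3, the ligand that drives melanoblast expansion, was low everywhere, from 0.0601 CPM in Synapsin-cre replicate 3 to 4.29 CPM in Synapsin-cre replicate 1. Edn1 was at 1.62 to 5.32 CPM, and Ece1, the protease that matures the ligands, at 50.7 to 130 CPM. Ednra, the endothelin A receptor, had the smallest p of the list in both comparisons with Nestin-creERT2. Its log2 fold changes of 1.04 ± 0.47 and 0.81 ± 0.47 had adjusted p = 0.449 and 0.568 by the same edgeR fit.

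Levels of different members can be set against each other only per length. After Ednrb, Pmel ranked next in the 3 NG2-creERTM libraries, at 12.3 to 70.9 CPM per kilobase, and in Synapsin-cre replicate 2. Foxd3 ranked next in Synapsin-cre replicates 1 and 3, at 16.4 and 31.3 CPM per kilobase. In Nestin-creERT2 the place fell to Mitf in replicates 1 and 2, at 1.68 and 0.818, and to Snai2 in replicate 3, at 1.73 against 1.65 for Mitf. Below Ednrb the order thus differed between models and also between libraries of 1 model. Pmel and Dct were closer to each other than either was to Foxd3, with a root mean square difference of 1.65 in centred log2 CPM against 2.87 and 2.89. The genes most like Dct were Fam178b at 0.93 and Egflam at 1.08, and those most like Pmel were Kif19a at 1.04, the Schwann cell ligand gene Dhh at 1.09 and Car6 at 1.19.

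**Figure D4:**
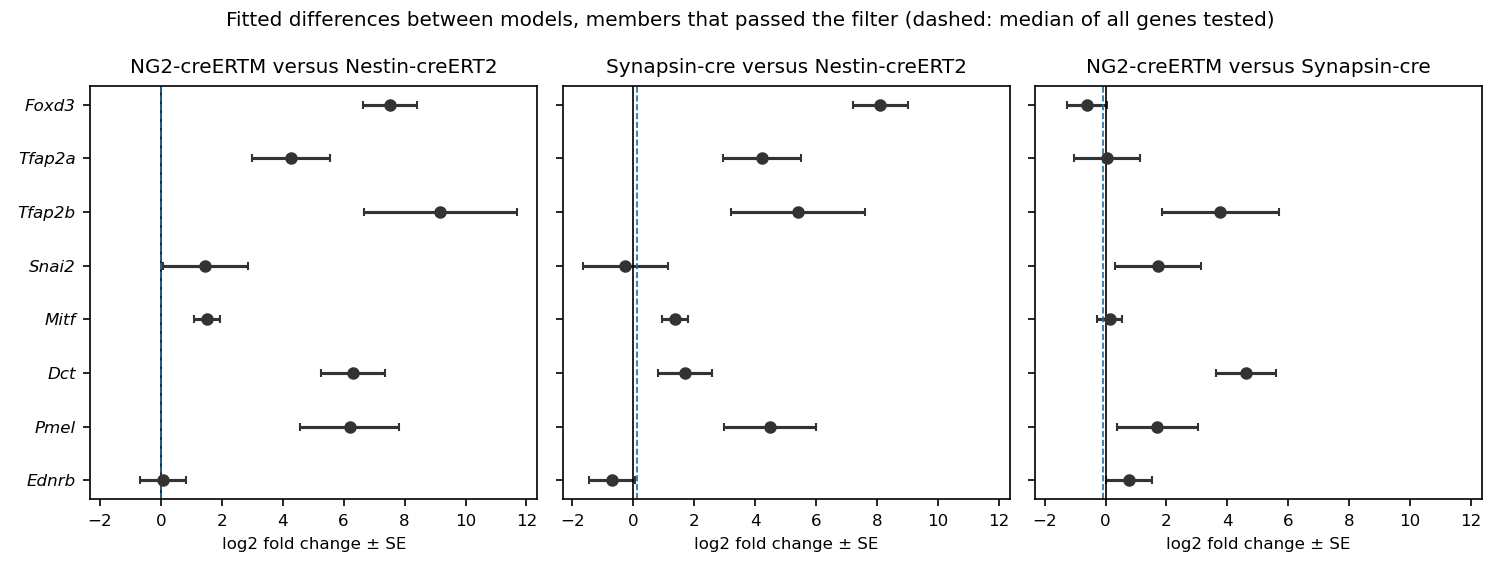
Fitted log2 fold changes with standard errors (bars) of the 8 members that passed the filter, in each of the 3 comparisons over all 9 libraries. The dashed line is the median of all genes tested. Foxd3 lies at 7.51 and 8.11 against Nestin-creERT2 and at -0.60 between NG2-creERTM and Synapsin-cre, whereas Dct lies at 6.31, 1.70 and 4.61.

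Counted over all 10 members, 5 were higher without overlap in NG2-creERTM than in Nestin-creERT2 (Foxd3, Tfap2a, Mitf, Dct and Pmel), where 11.0% of the 17947 genes tested were. Between Synapsin-cre and Nestin-creERT2 there were 4 (Foxd3, Tfap2a, Tfap2b and Mitf), beside 8.46% of genes. Between NG2-creERTM and Synapsin-cre Dct was the only 1, beside 5.76%. No member was lower without overlap, beside 14.2%, 6.26% and 8.04% of genes in the same order. The members were chosen on these contrasts, so nothing is read from these counts.

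In edgeR's quasi-likelihood fit of all 9 libraries 0 genes passed the threshold in any comparison (0.0% called). The smallest adjusted p over all genes was 0.102, 0.118 and 0.357 in the order of the plotted comparisons. At an unadjusted p under 0.05, the genes lower made up 5.73%, 4.05% and 8.81%, and those higher 5.53%, 6.74% and 4.0%. Limma voom also called 0 genes, whereas DESeq2 called 623 (3.47%), 497 (2.77%) and 446 (2.49%). Without the filter on low counts edgeR called 12 genes in each comparison with Nestin-creERT2 (0.039%) and 0 in the third.

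The calls over all genes depended on which libraries shared the estimate of spread. With only the libraries of the models compared, edgeR called 237 genes (1.39%), 5 genes (0.0291%) and 0 genes. Without Synapsin-cre replicate 1 it called 124 genes (0.671%), 273 genes (1.48%) and 1 gene (0.00541%). The common biological coefficient of variation was 0.612 with that library and 0.503 without it. Foxd3's log2 fold change against Nestin-creERT2 stayed between 6.64 and 8.13 for NG2-creERTM and between 7.53 and 8.72 for Synapsin-cre over all alternatives run.

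Other transcription factors of the crest did not share 1 direction. Of 21 listed, 17 passed the filter. For NG2-creERTM against Nestin-creERT2, 7 had positive and 10 negative log2 fold changes, with a median of -0.18 against 0.02 over all genes. None was called in the fit of 9 libraries. At an unadjusted p under 0.05 there were 2 higher and 2 lower, beside 5.53% and 5.73% of all genes. Sox10, the crest and oligodendrocyte lineage factor that acts with PAX3 upstream of Mitf, was at 931 to 975 CPM in NG2-creERTM, at 25.7, 72.2 and 380 CPM in Nestin-creERT2, and at 145, 921 and 1090 CPM in Synapsin-cre. Twist1, a factor of crest mesenchyme, was at 0.419 to 0.720 CPM in NG2-creERTM and Synapsin-cre and at 0.0953 or less in Nestin-creERT2.

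Sox9, a crest and astrocyte factor, went the other way. It was at 18.2 to 35.4 CPM in NG2-creERTM and at 111 to 151 in Nestin-creERT2. Its log2 fold change of -2.22 ± 0.41 had an adjusted p of 0.217 in edgeR's quasi-likelihood fit of 9 libraries and 0.0397 with the libraries of those models only, where it fell. Sox8, a related factor, had the smallest p of the list for Synapsin-cre against Nestin-creERT2, at -2.59 ± 0.50 with an edgeR adjusted p of 0.230. Pax7, another dorsal neural tube and crest factor, was at 20.7 CPM in NG2-creERTM replicate 2 and at 0.238 CPM or less in the other 8 libraries. Pax3 had 0 reads in that library.

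Schwann cell precursors and peripheral glia are crest derivatives too, and 18 of their genes were listed as markers. All 18 passed the filter, 14 with positive log2 fold changes for NG2-creERTM against Nestin-creERT2 and 15 for Synapsin-cre against Nestin-creERT2. The medians were 1.72 and 1.42, against 0.02 and 0.13 over all genes. Several of these genes, such as Sox10, are also made by oligodendrocyte lineage cells. Their summed level was 2473 to 6957 CPM in NG2-creERTM, 1323 to 2092 in Nestin-creERT2 and 1339 to 4203 in Synapsin-cre. The lowest Synapsin-cre sum was that of replicate 1, within the Nestin-creERT2 range, where Foxd3 was at 38.1 CPM. None was called in the fit of 9 libraries. At an unadjusted p under 0.05 there were 7 and 5 higher, beside 5.53% and 6.74% of all genes. There was 1 lower in each comparison, beside 5.73% and 4.05%. Gfra3 had 0 reads in Nestin-creERT2 replicates 1 and 3. Some markers of brain cells differed as well. The 11 neuronal genes summed to 486 to 787 CPM in NG2-creERTM and 1474 to 1902 in Nestin-creERT2. All 11 had negative log2 fold changes in that comparison, whereas for Synapsin-cre against Nestin-creERT2 8 were positive and 3 negative. That count rested on Synapsin-cre replicate 1, as the neuronal sums were 7836, 893 and 475 CPM in Synapsin-cre replicates 1 to 3. The median for Synapsin-cre against Nestin-creERT2 was 0.48 with replicate 1 and -2.29 without it. The 12 astrocyte genes summed to 1686 to 4147 CPM in NG2-creERTM, 4753 to 6849.5 in Nestin-creERT2 and 604 to 8386 in Synapsin-cre. Sums of 10 oligodendrocyte precursor genes overlapped, at 3390 to 7072 CPM in NG2-creERTM, 1746 to 8184 in Nestin-creERT2 and 717 to 3935 in Synapsin-cre. For NG2-creERTM against Nestin-creERT2, 5 of these were positive and 5 negative, with a median of 0.01. The part of any of these cells in the member levels was not tested.

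Erbb3, the neuregulin receptor on which Schwann cell precursors depend, was at 79.0, 570 and 302 CPM in Synapsin-cre, at 446, 143 and 874 CPM in NG2-creERTM, and at 2.85, 2.08 and 8.08 CPM in Nestin-creERT2. All 6 libraries of the first models were above the last 3. Its log2 fold change was 6.81 ± 1.07 for NG2-creERTM against Nestin-creERT2 and 6.19 ± 1.04 for Synapsin-cre. The edgeR adjusted p-values were 0.173 and 0.163 over 9 libraries, and 0.0350 and 0.0242 without Synapsin-cre replicate 1, where Erbb3 rose in both. Erbb3 lies on chromosome 10 as Pmel does, with 114542 bases between its end and the Pmel start. Suox and Rab5b, which stand between Erbb3 and Cdk2, had log2 fold changes of 0.20 and 0.30 for NG2-creERTM against Nestin-creERT2.

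Dhh, the gene of the Schwann cell ligand desert hedgehog, was at 85.0, 16.7 and 140 CPM in NG2-creERTM. It was at 3.94 to 27.2 CPM in Synapsin-cre and at 0.194 to 1.76 in Nestin-creERT2. Ngfr, the crest receptor p75, was at 10.8 to 124 CPM in NG2-creERTM, 23.0 to 42.8 in Synapsin-cre and 1.60 to 5.29 in Nestin-creERT2. For both genes, all libraries of NG2-creERTM and Synapsin-cre were above all of Nestin-creERT2. Fabp7 and Gap43, of the same list, went the other way and were lower without overlap in both models than in Nestin-creERT2. Fabp7 was at 475 to 875 CPM in Nestin-creERT2, 135 to 461 in NG2-creERTM and 90.3 to 198 in Synapsin-cre. Gap43 was at 225 to 305, 48.0 to 127 and 56.1 to 219 CPM in the same order. The plot of peripheral glial genes shows Sox10, Erbb3, Dhh and Ngfr in each library.

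**Figure D5:**
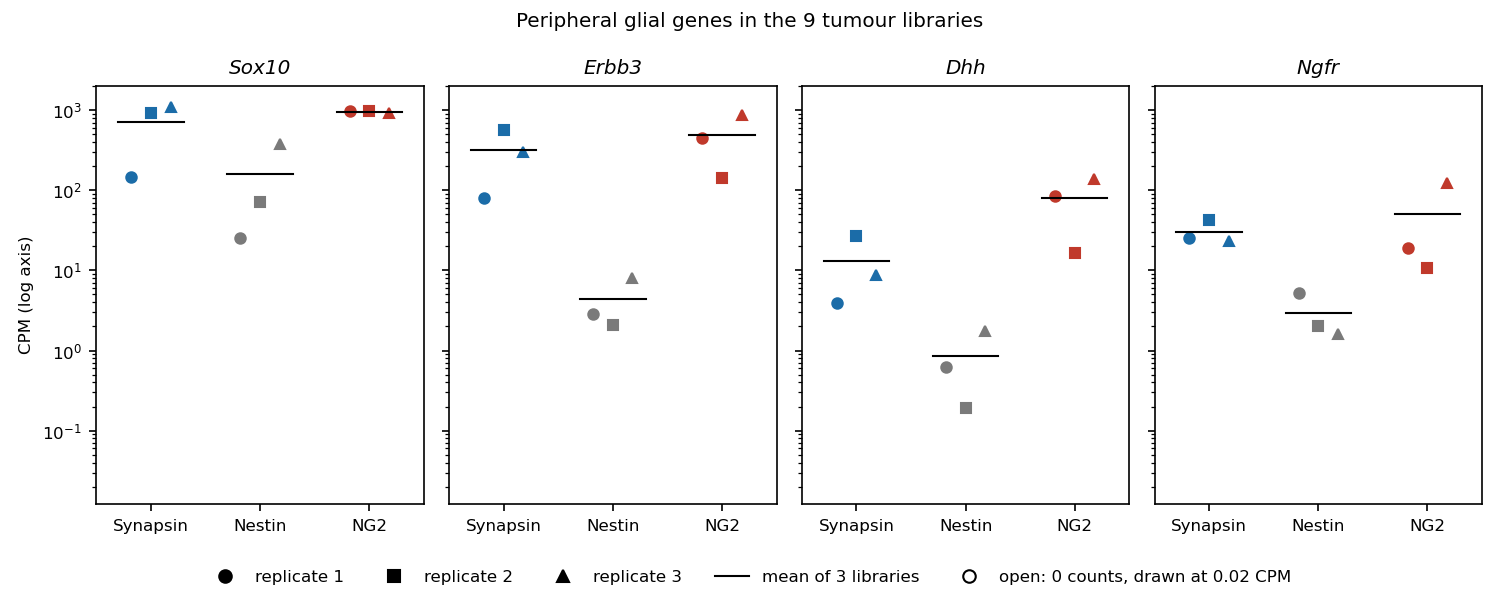
CPM on a log axis of Sox10, Erbb3, Dhh and Ngfr in each library, by model. Symbols mark the replicate and lines the mean of 3 libraries. The Nestin-creERT2 libraries are the lowest for Erbb3, at 8.08 CPM or less, and for Dhh, at 1.76 CPM or less.

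Other crest derivatives gave a mixed picture. Of the sympathoadrenal and sensory list, 7 of 12 genes passed the filter and none was called in any comparison. For NG2-creERTM against Nestin-creERT2, 1 was higher (Neurog1) and 2 lower (Gata3 and Chga) at an unadjusted p under 0.05, beside 5.53% and 5.73% of all genes. For Synapsin-cre against Nestin-creERT2, 2 were higher (Th and Pou4f1) and 0 lower, beside 6.74% and 4.05%. Dbh, an enzyme of sympathetic neurons, was at 0.443 CPM or less in all libraries and Isl1 at 0.762 or less. Others of the list were not low throughout. Chga was at 40.4 to 68.5 CPM in Nestin-creERT2, 1.83 to 17.9 in NG2-creERTM and 6.62 to 182 in Synapsin-cre. Th was at 273 CPM in Synapsin-cre replicate 1 and at 1.66 CPM or less in the other libraries. Of 16 genes of crest mesenchyme and meningeal fibroblasts 15 passed, and none was called over 9 libraries in any comparison. For NG2-creERTM against Nestin-creERT2, 14 had positive log2 fold changes, with a median of 2.45 against 0.02 over all genes. At an unadjusted p under 0.05 there were 7 higher and 0 lower in this comparison, beside 5.53% and 5.73% of all genes. Col3a1 had the smallest p among them in this comparison, at 4.49 ± 0.81 with an edgeR adjusted p of 0.217, and 0.0427 without Synapsin-cre replicate 1, where it rose. For Synapsin-cre against Nestin-creERT2, 13 had positive log2 fold changes, with a median of 1.1 against 0.13 over all genes. In that comparison 3 were higher and 0 lower at an unadjusted p under 0.05, beside 6.74% and 4.05%. Without Synapsin-cre replicate 1, Col3a1 passed the threshold there too. The summed level of this list was 258 to 1351 CPM in NG2-creERTM, 207 to 313 in Synapsin-cre and 136 to 155 in Nestin-creERT2. Its highest value was in NG2-creERTM replicate 1, where Pmel was highest but Foxd3, at 14.4 CPM, was lowest for that model. The part of these cells in the member levels was not tested.

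The ligand of Kit was highest where Foxd3 was lowest. Kitl, which melanoblasts need to survive, was at 82.0 to 101 CPM in Nestin-creERT2, at 22.9 to 37.2 in NG2-creERTM and at 35.3, 2.26 and 13.2 in Synapsin-cre. Its log2 fold change was -1.58 ± 0.74 for NG2-creERTM and -2.47 ± 0.76 for Synapsin-cre against Nestin-creERT2, with edgeR adjusted p = 0.468 and 0.346. With the libraries of NG2-creERTM and Nestin-creERT2 only, the adjusted p was 0.0446, and Kitl fell there. Without Synapsin-cre replicate 1, Kitl did not pass the threshold for NG2-creERTM against Nestin-creERT2 but passed for Synapsin-cre against Nestin-creERT2.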

How the data were processed

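There were 9 bulk RNA-seq libraries of tumour tissue, 3 per model, grouped by the model named in the labels and numbered in accession order. The deposited files hold read counts per gene, whole numbers for either strand and for both. Per the submitters' processing notes, STAR and HTSeq were used with the build mm10, with versions not given in the sources used here. The column with most reads (column 4) was taken, since the other strand held 3.25 to 3.64% of stranded reads, and 4 summary lines per file, 17.9 to 27.3% of reads, were left out. Of 46517 identifiers 46005 matched GENCODE vM21. Read duplicates cannot be told apart, so the limit of 3 counts covers counting error only.

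Counts were fitted with edgeR 4.0.16 in R 4.3.3 (TMM factors of 0.961 to 1.08, filterByExpr, quasi-likelihood F-test, Benjamini-Hochberg adjustment over 17947 genes, threshold 0.05), 1 fit for all 9 libraries. The fit was tested on simulated data. Alternatives were limma 3.58.1 (voom), DESeq2 1.42.0, other size factors and filters, unstranded counts, only the libraries of the models compared, and leaving out each library. Ranges were called apart when all libraries of a model lay above all of another. Likeness was the root mean square difference of log2 CPM (prior count 2), centred on each gene's mean. Levels per length used merged exon length.

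The members and all lists were chosen with earlier results of these data known. By rule, all members were named, and of each other list up to 4 called genes or the 2 with the smallest p in a comparison. Other genes, such as Tyr, Mlana, Gpr143, Gpnmb, Mreg, Kit, Kitl, Sox10, Pax7, Edn3, Ngfr, Met and the markers given with their levels, were named after their values were seen. Some genes that the rule names are not reported here. No promoter entry was at hand for Pax3, Snai2 and Pmel.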

Additional observations from a re-analysis of the deposited data

Results flagged for a closer look

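Reads on the strand opposite to Foxd3 lie outside the counted strand. They numbered 2725 over the 9 libraries, 26.2% of the reads on either strand of the gene, and reached 30.5 CPM in Synapsin-cre replicate 2 against 0.0588 CPM or less in Nestin-creERT2. Reads opposite to Pmel numbered 1272, or 8.88%. Both shares are above the 3.25 to 3.64% found over all genes in the libraries. Gm12688 lies on that strand beside Foxd3, and Cdk2 and Dgka overlap Pmel there. Which transcripts the reads came from was not tested.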

How the results depend on the processing

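Over 18 alternatives, 422 log2 fold changes of members were recomputed. They moved by at least 1 SD of the libraries' log2 CPM within models in 15 cases, all from leaving out 1 library. There were 15 changes of sign, in Snai2 (all 3 comparisons), Tfap2a, Mitf and Tfap2b between NG2-creERTM and Synapsin-cre, and Ednrb between NG2-creERTM and Nestin-creERT2.

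Values that moved and are not given above were these. Leaving out NG2-creERTM replicate 3, Tfap2b against Nestin-creERT2 fell to 4.40. Leaving out Synapsin-cre replicate 2, it fell to 3.79 for Synapsin-cre against Nestin-creERT2 and Pmel between NG2-creERTM and Synapsin-cre became 4.91. Without Synapsin-cre replicate 3, Tfap2a became 2.67 between those models. Snai2 for NG2-creERTM against Nestin-creERT2 was 3.60 without Nestin-creERT2 replicate 3 and -0.54 without NG2-creERTM replicate 1. The cause was not tested.

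Counts of genes past the threshold were 0 in all 3 comparisons over 9 libraries. Without the filter on low counts they were 12, 12 and 0, in the order NG2-creERTM against Nestin-creERT2, Synapsin-cre against Nestin-creERT2, and NG2-creERTM against Synapsin-cre. DESeq2 gave 623, 497 and 446. With the libraries of the models compared only they were 237, 5 and 0, and also without Synapsin-cre replicate 1 they were 431 for the second and 1 for the third. Unstranded counts gave 1 gene in the second comparison. Leaving out each library in turn gave 0 to 124, 0 to 273 and 0 to 1 genes, and each highest count was without Synapsin-cre replicate 1. Limma voom, other size factors and the filter of 1 CPM in 3 libraries gave 0 throughout.

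Of 1456 log2 fold changes of other named genes under alternatives, 55 passed the threshold where they had not before and 33 changed sign. Leaving out each library in turn gave these ranges for NG2-creERTM against Nestin-creERT2: Slc45a2 -0.34 to 0.97, Edn1 -0.078 to 0.69 and Mmel1 -1.88 to 3.48. For Synapsin-cre against Nestin-creERT2 the ranges were -1.43 to 1.86 for Zic1, -0.063 to 0.15 for Mreg, -0.35 to 0.64 for Gpnmb and -1.30 to 0.18 for Ece2. Between NG2-creERTM and Synapsin-cre they were -0.10 to 1.39 for Erbb3, -1.04 to 1.23 for Ngfr, -0.068 to 0.86 for Sox10, -0.10 to 0.28 for Twist1, -0.052 to 0.48 for Ednra, -2.21 to 0.59 for Edn3, -0.17 to 0.33 for Ece1, -1.26 to 0.14 for Ece2 and -3.22 to 2.18 for Mmel1. With the libraries of the models compared and without Synapsin-cre replicate 1, Zic1 was -1.43 in the second comparison, and in the third Sox10 was -0.045, Edn3 0.63 and Ece2 0.16. Mreg in the second comparison was -0.014 with upper quartile size factors and -0.078 without the filter. In the third, Ece1 was -0.00066 with the filter of 1 CPM, and Mmel1 was -0.89 with voom.

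No paired analysis was possible because the labels give the models no shared replicate numbers. Genes under about 1 CPM rest on few reads, and 3 libraries per model with a coefficient of variation of 0.612 limit all comparisons.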

Other observations

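Met, the receptor of hepatocyte growth factor, was at 9037 CPM in Synapsin-cre replicate 2 and at 5707 CPM in NG2-creERTM replicate 3, and between 4.34 and 40.1 CPM in the other 7 libraries. These were also the libraries with the highest Tfap2b, at 8.75 and 152 CPM. The genes most like Tfap2b over the 9 libraries were Gm13174 at a root mean square difference of 1.35 in centred log2 CPM, Ajap1 at 1.66 and the crest cadherin gene Cdh19 at 1.73. Cdh19 was at 419 CPM in NG2-creERTM replicate 3 and at 107 CPM in Synapsin-cre replicate 2, its highest libraries, but at 59.6 and 61.7 CPM in the first replicates of those models as well.

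Erbb2, the partner receptor of Erbb3, differed less than Erbb3 itself, with log2 fold changes of 2.65 ± 0.48 for NG2-creERTM and 2.26 ± 0.47 for Synapsin-cre against Nestin-creERT2. Its adjusted p was 0.217 and 0.246 in edgeR's fit of 9 libraries, and 0.0468 and 0.0491 without Synapsin-cre replicate 1, where it rose. With only the libraries of the models compared, Erbb2 passed for NG2-creERTM against Nestin-creERT2. In such a fit it did not pass for Synapsin-cre, with or without replicate 1. Of the 20 crest receptors and growth factors listed, all of which passed the filter, none was called over 9 libraries. At an unadjusted p under 0.05 there were 6 higher and 2 lower for NG2-creERTM against Nestin-creERT2, beside 5.53% and 5.73% of all genes.

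Oca2, a melanosomal transporter gene, had the smallest p of the pigment list for Synapsin-cre against Nestin-creERT2. Its log2 fold change was -6.32 ± 1.78 with an edgeR adjusted p of 0.323, and Nestin-creERT2 replicate 1 held its highest level, 4.97 CPM. Tfap2a was most like Tmem26, Capn6 and Gm13403, at root mean square differences of 0.69, 0.77 and 0.80.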
